A study of Homo sapiens with 79 samples.

Results

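The cells described here are the 66 of 1976 single cells of human retinal organoids that had at least 5 reads each in at least 3 of the 7 genes GPC3, SPARCL1, S100B, RFX4, TTC6, PAMR1 and WNT2B. A cell was left out where it also had at least 5 reads in 3 or more of the 6 matrix genes COL3A1, COL1A1, DCN, LUM, MGP and OLFML3. They are called the chosen cells, and the 7 genes the rule genes. The name under which they were proposed, GPC3 and S100B glia-like cells, is compared with the data further on. Organoids of the H9 human embryonic stem cell line with a CRX-GFP reporter were dissociated after 60, 90 and 200 days of differentiation and captured on Fluidigm C1 chips, which hold cells of a limited range of sizes, and full-length cDNA was sequenced. The organoids of all 3 ages came from the same line, which is 1 genetic background, and the culture medium of all of them held foetal calf serum, T3, taurine and retinoic acid, with the kinase inhibitor Y27632 at the start. Day 60 and day 90 had 1 chip each and day 200 had 2, called chip a and chip b. Columns of a chip and cells are not replicates, so no test between ages or between groups of cells was made. A range after a value is its 95% interval, by the exact Clopper-Pearson method where the value is a share of cells and by the exact Poisson method where it is a sum of reads. Such an interval holds counting error alone, and amplified reads that carry no molecular identifier are not separate molecules.

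GPC3 is a glypican, a cell surface heparan sulfate proteoglycan that binds growth factors, and its loss causes an overgrowth syndrome. SPARCL1 is a secreted matrix-associated protein made by astrocytes, S100B is a calcium-binding protein widely used as a marker of glia, and WNT2B is a Wnt ligand of the peripheral eye cup. RFX4 is a winged-helix transcription factor of the developing brain and spinal cord, related to the RFX factors that act on genes of cilia. TTC6 is a tetratricopeptide repeat protein, and PAMR1 a secreted protein with protease-like and EGF-like domains. HOX genes, which enter the description later, are homeobox genes that are switched on in an ordered series along the hindbrain, the spinal cord and the trunk, and the neural retina and forebrain develop without them.

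The chosen cells made up 3.34% of all cells (2.59 to 4.23). They were 23 of 578 cells at day 60 (3.98%, 2.54 to 5.91) and 12 of 661 at day 90 (1.82%, 0.941 to 3.15). On the day 200 chips they were 2 of 356 cells of chip a (0.562%, 0.0681 to 2.01) and 29 of 381 cells of chip b (7.61%, 5.16 to 10.7). The day 200 chips thus lay further apart than day 60 lay from day 90, and no course with age can be read from these shares. The cells came from 38 of the 79 chip columns, with at most 4 in a column, and the row barcodes of the chips were largely shared, 38 of 40 being found on all 4 chips. No chosen cell was among the 7 cells called doublets. Median depth was 201240 reads in chosen and 162687 in other cells at day 60, 215952 and 159792 at day 90, 338404 and 251780 on chip a, and 239178 and 212122 on chip b. The median number of genes with a read was also higher in the chosen cells, at 5105 against 3792, 4286.5 against 3663, 2604.5 against 2363.5 and 3863 against 3476. Thinned to 50000 reads per cell the medians were 4092 against 3093, 3281.5 against 2878, 1912 against 1664.5 and 3101 against 2759, so that the order held at equal depth. The median share of mitochondrial reads was 9.16% in chosen and 6.85% in other cells at day 60, 4.84% and 4.13% at day 90, 3.49% and 4.15% on chip a and 6.45% and 5.67% on chip b.

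**Figure D1:**
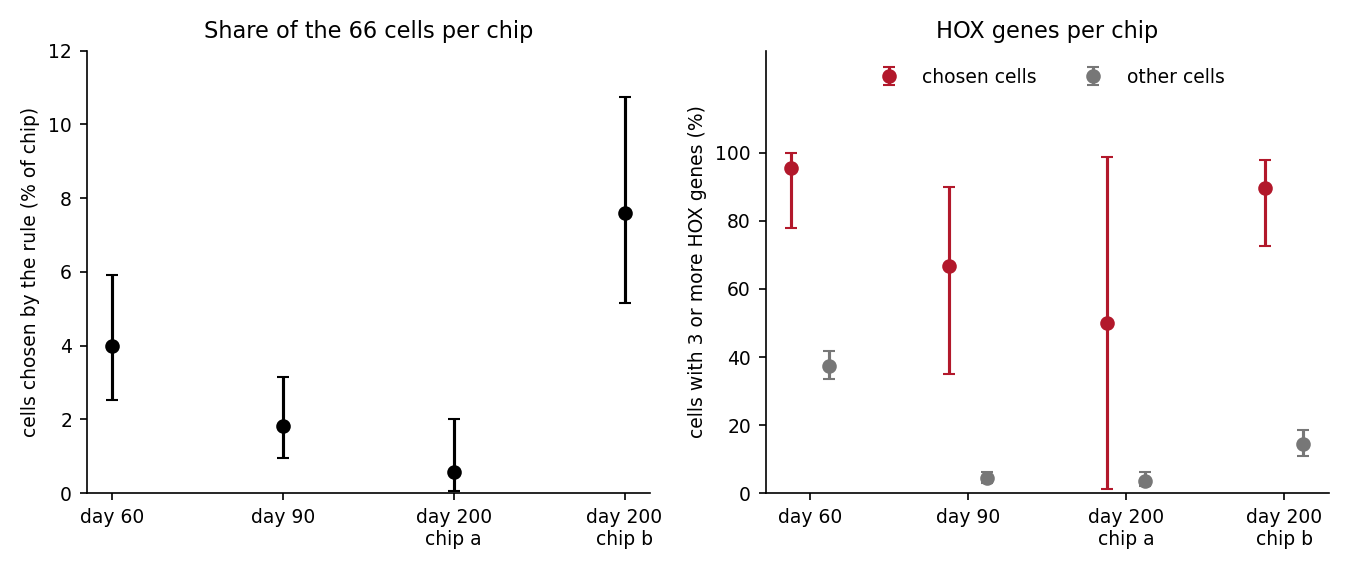
Left, the share of cells chosen by the rule on each chip (percent of the chip's cells), and right, the share of chosen and of other cells with at least 5 reads in 3 or more HOX genes (percent), with points for the shares and bars for exact binomial 95% intervals. Chip b of day 200 held 7.61% chosen cells and chip a 0.562%, and HOX genes were read in a higher share of chosen than of other cells on each of the 4 chips.

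The reads of the 7 genes chose the cells, so their values describe the choice. Levels are in CPM, the reads of a gene in a group of cells relative to all reads of the group, and where 4 values stand in a row they belong to day 60, day 90, chip a and chip b, and where 3 stand in a row to day 60, day 90 and chip b. GPC3 reached 5 reads in 58 of the 66 cells, SPARCL1 in 48, RFX4 and PAMR1 in 34 each, S100B and WNT2B in 33 each and TTC6 in 24. GPC3, on the X chromosome (GRCh38, chrX:133535745-133987100, minus strand), was at 1399.5 (1367 to 1433), 1888, 4945 and 1997 CPM in the chosen cells and at 64.6, 78.02, 85.1 and 166 CPM in the other cells. Its reads per chosen cell ran from 0 to 2982 with a median of 213. SPARCL1 (chr4:87473335-87531061, minus strand) was at 199, 282 and 177 CPM in the chosen cells of day 60, day 90 and chip a and at 1325 CPM on chip b (1297 to 1352). Every one of the 29 chosen cells of chip b had a SPARCL1 read, while 10 of 23 at day 60 had none, so the gene that carried the choice differed between the chips. S100B (chr21:46598604-46605208, minus strand) was at 342, 262 and 287 CPM at day 60, day 90 and on chip b and had no read in the 2 chosen cells of chip a (exact Poisson upper bound 5.45 CPM).

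RFX4 (chr12:106583004-106762803, plus strand) was at 219 CPM in the chosen cells of day 60 (206 to 233), 88.9 at day 90 and 75.9 on chip b, against 12.6, 0.889 and 0.825 CPM in the other cells. TTC6 (chr14:37595629-38041442, plus strand) was at 90.5, 30.9 and 99.98 CPM against 3.92, 0.0889 and 0.437 CPM. Neither RFX4 nor TTC6 had a read in any of the 356 cells of chip a. PAMR1 was at 83.6, 273, 22.2 and 338 CPM and WNT2B at 228, 369.8, 23.6 and 383 CPM in the chosen cells of day 60, day 90, chip a and chip b. Outside the chosen cells GPC3 was the rule gene most often found, with at least 5 reads in 15.8% of cells, followed by WNT2B with 8.43%, and TTC6 was the rarest with 0.209%.

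The chosen cells varied among themselves. At least 5 reads were found for exactly 3 rule genes in 27 cells, for 4 in 21, for 5 in 10, for 6 in 7 and for all 7 in 1. The combination of GPC3, SPARCL1 and WNT2B was the commonest, with 7 cells, and 39 combinations were found in all. The rule gene ranked 3 by reads in its cell had 6 reads in the lowest chosen cell, 64.5 in the median and 401 in the highest. Just inside the threshold were 6 cells with 5 to 9 reads in that gene, and just outside were 52 cells with 1 to 4 reads. A further 107 cells without the matrix genes had 2 rule genes, and 10 cells with at least 3 rule genes were left out for their matrix genes.

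HOX genes, which the rule did not use, were read in most chosen cells. At least 5 reads in 3 or more of 23 HOX genes were found in 57 of the 66 chosen cells (86.4%, 75.7 to 93.6) and in 301 of the 1910 other cells (15.8%, 14.2 to 17.5). Such cells are called HOX-positive here, a definition made after the values had been seen. In the order day 60, day 90, chip a and chip b they were 22 of 23, 8 of 12, 1 of 2 and 26 of 29 chosen cells, against 37.5%, 4.47%, 3.67% and 14.5% of the other cells. The ranges of the shares were 78.1 to 99.9 against 33.4 to 41.7 at day 60 and 34.9 to 90.1 against 3.01 to 6.35 at day 90. On chip a, with 2 chosen cells, they were 1.26 to 98.7 against 1.97 to 6.20, and on chip b 72.6 to 97.8 against 11.0 to 18.6. They cover counting error over cells of single chips and are no test of a difference. A HOX-positive chosen cell had a median of 7 HOX genes, from 3 to 12, and the other HOX-positive cells had a median of 6. No HOX gene reached 5 reads in 5 chosen cells and in 67.3% of the other cells.

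As sums over cells, 5 of the 23 HOX genes passed the minimum explained further on and 0 were called, where 0.267% of all genes that passed were called higher. Of these 5, 4 were higher in chosen cells on all 3 chips with at least 10 of them, as were 15.6% of all genes that passed. Without the minimum 12 of the 23 were higher and 0 lower, beside 6.43% and 20.5% of all genes in the table. Grouped by position in the HOX clusters and given for groups 2 to 9, genes of group 2 were found with at least 5 reads in 51.5% of the chosen cells, of group 3 in 81.8%, of group 4 in 60.6%, of group 5 in 69.7% and of group 6 in 65.2%. Groups 7, 8 and 9 were found in 51.5%, 42.4% and 42.4%, and in no more than 9.79% of the other cells. Later groups were not in the list. HOXB3 was read in 56 of the 66 chosen cells, at 542, 228, 36.9 and 403 CPM by chip, against 162, 26.2, 22.7 and 60.7 CPM in the other cells. HOXA5 was at 168, 147, 0 and 233 CPM against 81.1, 2.69, 0 and 13.2 CPM, and HOXB9 at 142, 35.8, 0 and 95.6 against 45.6, 1.32, 5.31 and 5.80 CPM. For these 3 genes the difference was smaller at day 60, where the other cells held many HOX-positive cells, than on chip b. Columns of the chips that held a chosen cell had no uniformly higher share of HOX-positive cells among their other cells, with 37.8% against 36.5% in columns without one at day 60, 3.43% against 5.49% at day 90, 5.88% against 3.44% on chip a and 13.5% against 16.3% on chip b.

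**Figure D2:**
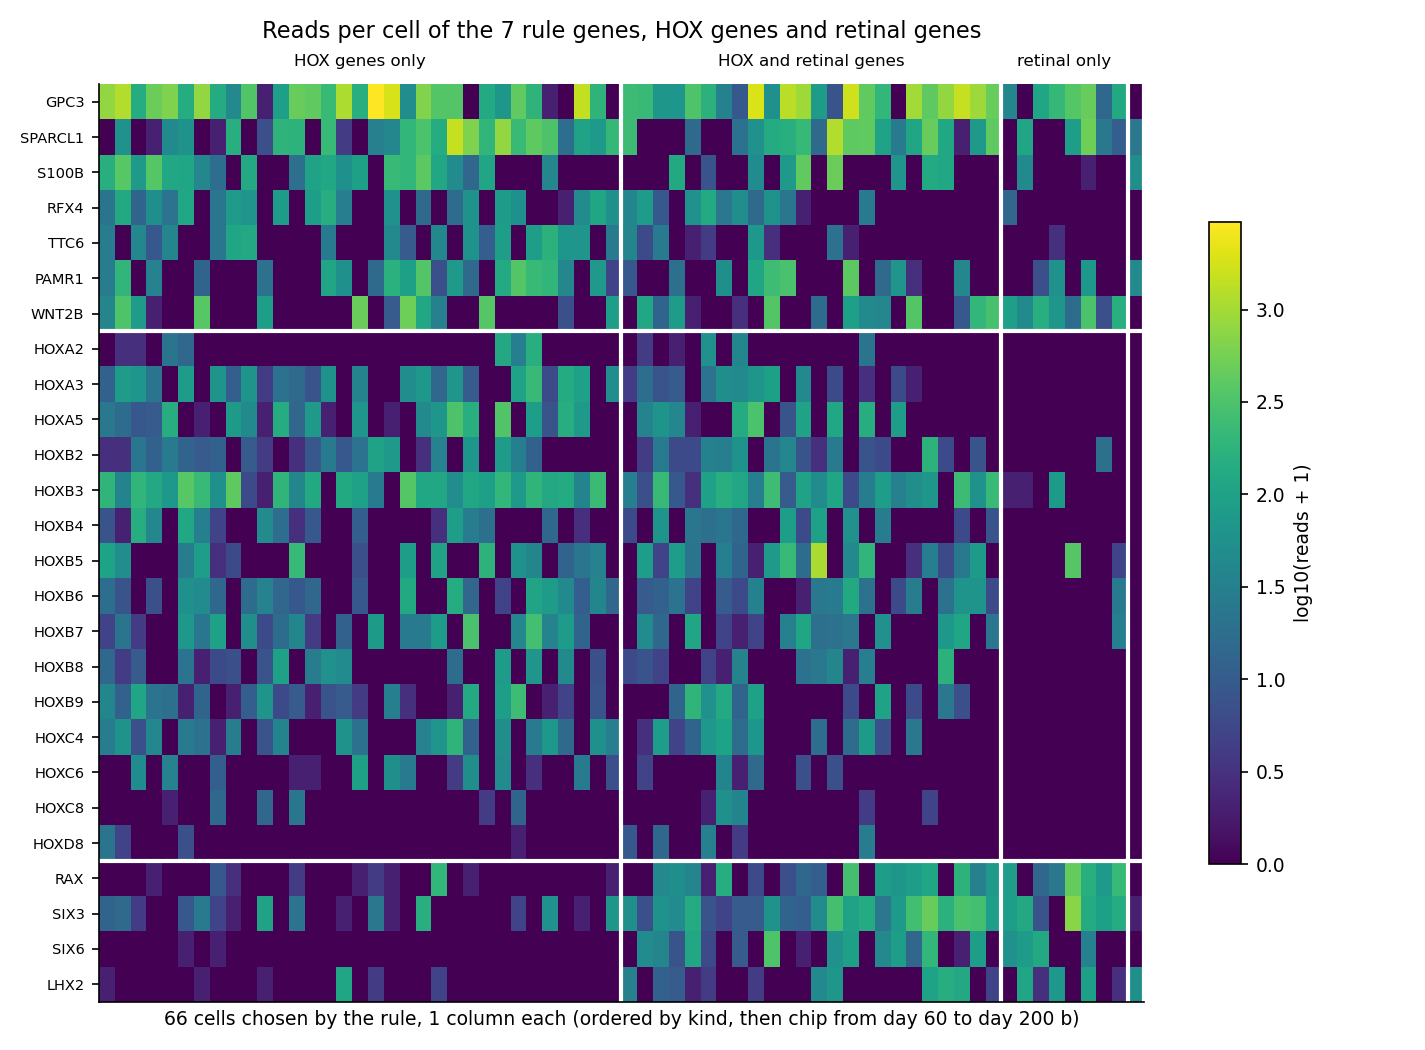
Reads per cell of the 7 rule genes (top), 15 HOX genes (middle) and 4 retinal genes (bottom) in the 66 chosen cells, as log10(reads + 1) by colour, with 1 column per cell ordered by kind and then by chip. HOX reads fill the columns of 57 cells, and the 8 cells with retinal genes only have few of them.

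The share of HOX-positive cells was higher the more rule genes a cell had. Among cells outside the matrix genes it was 11.3% with no rule gene at 5 reads, 19.3% with 1, 42.99% with 2, 70.4% with 3 and 97.4% (38 of 39) with 4 or more. The same order was found on each chip with at least 10 chosen cells, from 31.4% to 100% (14 of 14) at day 60, from 2.00% to 100% (5 of 5) at day 90 and from 6.63% to 95% (19 of 20) on chip b. With cells thinned to 50000 reads the HOX score was another one, any read in 3 or more HOX genes instead of at least 5 reads each. The shares over all chips were then 13.6%, 22.1%, 48.6%, 74.1% and 97.4%, with the rule genes still counted at full depth. The rule genes differed in this respect. All 27 cells with TTC6 were HOX-positive, and so were 57 of 63 cells with RFX4 (90.5%), including cells that the rule did not choose. By chip the cells with RFX4 were HOX-positive in 39 of 43 cases at day 60, 8 of 9 at day 90 and 10 of 11 on chip b. With GPC3 the share was 42.3% of 319 cells, with SPARCL1 46.6% of 133, with S100B 44.8% of 87, with PAMR1 49.3% of 73 and with WNT2B 27.8% of 180. For GPC3 the shares by chip were 61.2%, 18.6%, 25.0% and 47.1%, against 33.2%, 2.61%, 1.58% and 9.47% of the cells without it. Depth per cell was not matched in these shares.

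**Figure D3:**
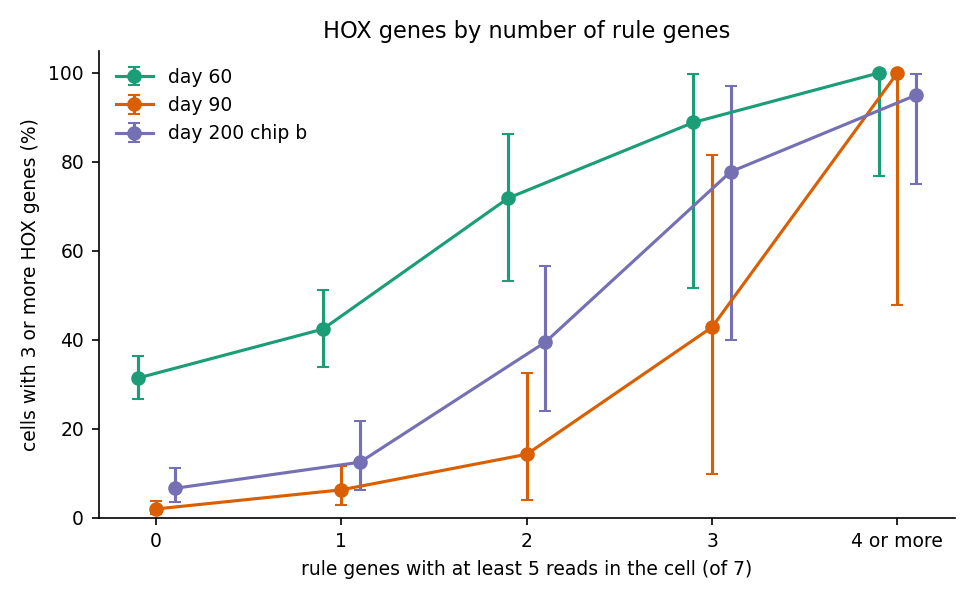
Share of HOX-positive cells (percent, with exact binomial 95% intervals) against the number of rule genes with at least 5 reads in the cell, for the 3 chips with at least 10 chosen cells, cells with 3 or more matrix genes left out. On each chip the share was lowest in cells without a rule gene and at least 95% in cells with 4 or more.

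The 66 cells were not of 1 kind. Retinal genes were scored as 2 or more of 5 homeobox genes of the optic field and retinal progenitors, RAX, SIX3, SIX6 and LHX2 among them, with at least 5 reads each. By this score, also made after the values had been seen, 33 cells had HOX genes only, 24 had HOX and retinal genes, 8 had retinal genes only and 1 had neither. In the other cells these classes held 9.11%, 6.65%, 58.7% and 25.5%, so that retinal genes were found in 48.5% of the chosen and 65.3% of the other cells. At day 60 the counts in that order were 14, 8, 0 and 1, at day 90 3, 5, 4 and 0, on chip a 1, 0, 1 and 0, and on chip b 15, 11, 3 and 0. Retinal genes were found in 20 of the 27 cells with exactly 3 rule genes (74.1%) and in 12 of the 39 with 4 or more (30.8%). Median depth was 195453 reads in cells with HOX genes only, 220836 in cells with both and 264386 in cells with retinal genes only, and the median number of genes was 3709, 4802.5 and 4319.5. The part of depth and of the number of genes in the class with both was not tested.

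The rule genes were divided unevenly over these kinds, which describes the choice and is no test of the kinds. Cells with HOX genes only had a median of 4 rule genes, and those with both or with retinal genes only a median of 3, the least the rule allows. S100B had at least 5 reads in 22 of 33 cells with HOX genes only, in 9 of 24 with both and in 1 of 8 with retinal genes only. The counts were 22, 11 and 1 for RFX4 and 19, 5 and 0 for TTC6. WNT2B had the opposite distribution, with 13 of 33, 12 of 24 and 8 of 8, and GPC3 was found in 28, 23 and 7 cells. By chip, GPC3 was at 1953, 2655 and 1875 CPM in cells with HOX genes only and at 623, 3302 and 2488 CPM in cells with both, so that the order turned between day 60 and the other chips. S100B was at 509.7, 467 and 383 CPM with HOX genes only and at 73.1, 419 and 271 CPM with both. RFX4 was at 234, 315 and 163 CPM against 212, 75.7 and 8.79 CPM. The 4 cells of day 90 and 3 of chip b with retinal genes only had 254 and 717 CPM of GPC3, 31.1 and 1.18 CPM of S100B and 258 and 547 CPM of WNT2B.

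**Figure D4:**
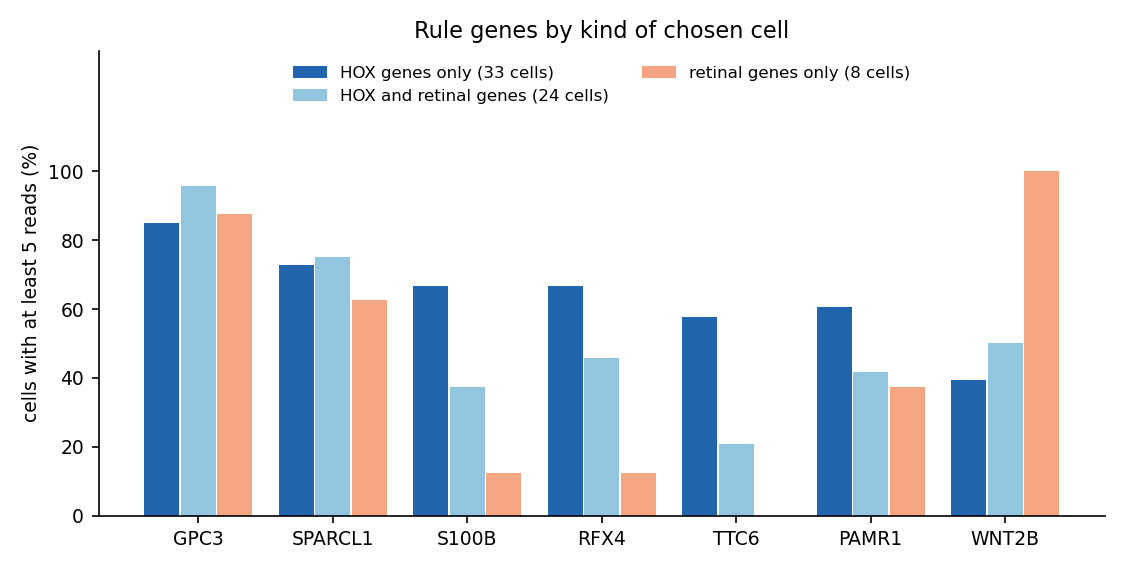
Share of chosen cells with at least 5 reads of each rule gene (percent, bars from 0), by kind of cell, namely 33 cells with HOX genes only, 24 with HOX and retinal genes and 8 with retinal genes only. TTC6 was found in 19, 5 and 0 cells of these kinds and WNT2B in 13, 12 and 8.

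Outside the 13 genes used for the choice, 10 of the 3746 genes that passed the minimum were at least 4-fold higher in chosen than in other cells on each of the 3 chips with at least 10 chosen cells (0.267%), and 0 were at least 4-fold lower (0%). The minimum was 50 CPM and a read in 25% of the cells in the higher group of each chip, and folds are on the scale log2(CPM + 10). These values compare groups formed by reads of the same cells and are given without a test. The 10 genes were MEIS2, EFNB3, C5orf49, TMOD1, SKAP2, WLS, POSTN, SIAE, FAT3 and HOXB-AS3. The chosen cells of chip a were too few for this comparison, and 8 of the 10 genes, all but EFNB3 and HOXB-AS3, had no read in them. The median log2 fold over the 3746 genes was -0.09.

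MEIS2, a homeobox factor that acts together with HOX proteins and is also expressed in the eye (chr15:36889204-37101299, minus strand), was at 672 CPM in the chosen cells of day 60 (649 to 695), at 656 at day 90 and at 852 on chip b, and at 113, 114 and 121 CPM in the other cells. It had a read in 56 of the 66 chosen cells and in 46.2% of the others. In log2 the differences were 2.47, 2.42 and 2.72, close to each other on the 3 chips. SKAP2, an adaptor of Src family kinases (chr7:26667068-26995239, minus strand), was at 550.5, 211 and 438 CPM against 110, 14.9 and 27.2 CPM. It lies next to the HOXA cluster. HOXB-AS3, an antisense transcript within the HOXB cluster, was at 1039, 296, 217 and 157 CPM in the chosen cells, against 218, 17.2, 5.80 and 31.7 CPM. It overlaps HOXB3 on the opposite strand, and as no strand setting is stated for the counting, the division of reads between the overlapping genes is uncertain.

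WLS, the carrier that brings Wnt ligands to the cell surface (chr1:68098473-68233120, minus strand), was at 254, 324 and 113 CPM against 17.5, 17.1 and 16.4 CPM. It was read in 41 chosen cells (62.1%) and in 9.58% of the others. POSTN, periostin of the extracellular matrix (chr13:37562583-37598844, minus strand), was at 433, 247 and 201 CPM against 29.7, 42.7 and 36.7 CPM, with 21 of 23 chosen cells holding a read at day 60, 4 of 12 at day 90 and 10 of 29 on chip b. At day 90 a single cell gave 73.7% of its reads. FAT3, an atypical cadherin, was at 322, 251 and 239 CPM against 63.7, 52.9 and 31.4 CPM, and EFNB3, a membrane-bound ephrin, at 182, 316 and 279 CPM against 26.5, 42.3 and 27.5 CPM.

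C5orf49, now named CFAP90 after cilia and flagella (chr5:7830378-7851151, minus strand), was at 118, 68.8 and 143 CPM against 12.8, 5.58 and 10.8 CPM and was read in 23 chosen cells. TMOD1, which caps actin filaments, was at 54.6, 62.97 and 84.6 CPM against 3.36, 1.48 and 2.68 CPM and was read in 22. SIAE, a sialic acid esterase, was at 101.5, 174 and 122 CPM against 6.28, 22.5 and 20.0 CPM, with 86.3% of its day 90 reads from 1 cell. The 5 genes next in order were KIF9, ZNF503, BBOF1, CDH6 and BRINP1, whose log2 folds ran from 1.72 to 2.95. KIF9 and BBOF1 are motor and basal body proteins of motile cilia, at 73.4, 67.3 and 67.2 CPM and at 87.8, 142 and 97.3 CPM in the chosen cells.

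Among the 10 genes with the lowest folds were TRPM3, HOOK1, MIAT, CRMP1, NEUROD1, SNAP25, STMN4, EML1 and CELF4. TRPM3, a cation channel of the pigment epithelium and ciliary body, was at 0.408, 1.85 and 26.4 CPM in the chosen cells against 51.2, 296 and 119 CPM in the others. NEUROD1, a factor of photoreceptor and amacrine development, was at 24.9, 64.2 and 49.2 CPM against 199, 186 and 177 CPM. None of the 10 was at least 4-fold lower on all 3 chips.

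**Figure D5:**
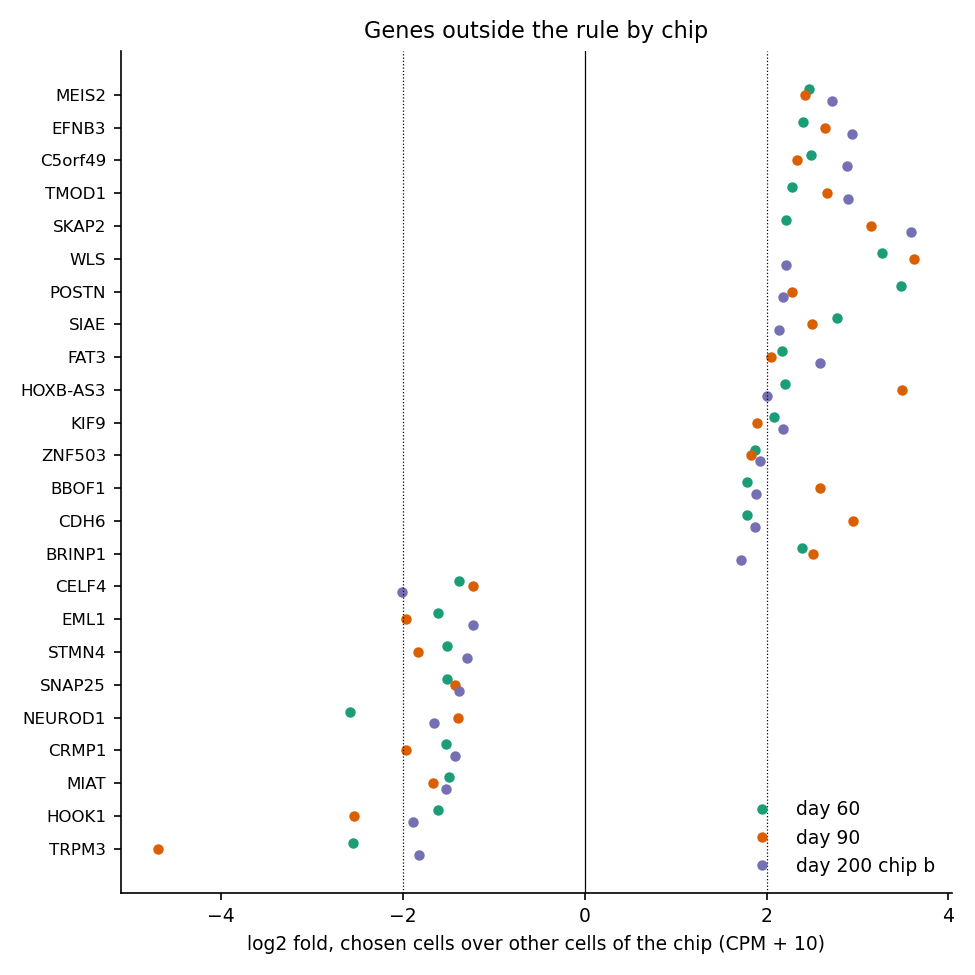
Log2 fold of summed CPM + 10 in the chosen cells over the other cells of the same chip, for the 15 genes outside the rule with the highest and 9 of the 10 with the lowest fold in the chip where it was smallest, with 1 point per chip with at least 10 chosen cells and dotted lines at 4-fold. The first 10 genes, from MEIS2 to HOXB-AS3, lay at or beyond the 4-fold line on all 3 chips, and none of the lower genes did.

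The label of glia was compared with a list of genes of astrocytes and glia, 20 of which were in the table. Of these 8 passed the minimum and 0 were called, beside a background of 0.267% for higher genes. The median log2 fold of the 8 was 0.69, beside -0.09 for all genes. Of the 8, 4 were higher on all 3 chips, beside 15.6% of all genes that passed. Without the minimum 9 of the 20 were, beside 6.43% of all genes in the table, namely NFIA, NTRK2, AGT, SLC1A2, HOPX, CD44, NFIB, GFAP and AQP4, and ALDOC was lower on all 3. NFIA, a factor that starts gliogenesis, was at 513, 409.6 and 505 CPM against 66.8, 97.5 and 213 CPM and was read in 60 of the 66 cells. NTRK2, the BDNF receptor, was at 689, 369 and 293 CPM against 80.8, 103 and 110 CPM. AGT, angiotensinogen, which astrocytes make, was at 47.7, 547 and 282 CPM against 8.46, 25.0 and 38.3 CPM.

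Genes that define mature astrocytes were in few of the cells. GFAP, the intermediate filament of astrocytes, had a read in 11 of the 66 chosen cells (16.7%) and in 2.98% of the others. It was at 11.8, 666 and 387 CPM in the chosen cells of day 60, day 90 and chip b, and 98.3%, 79.2% and 40.2% of these reads came from 1 cell per chip. At least 5 GFAP reads were found in 9 chosen cells and at most 1709 in a single one. AQP4, the water channel of astrocyte end-feet, had a read in 3 chosen cells and ALDH1L1 in 2. SLC1A3, the glutamate transporter of radial glia and astrocytes, was read in 40 of the 66 chosen cells. It was not among the 9 genes of the list that were higher on all 3 chips. SOX2, a gene of the retinal identity list and not of the glia list, was read in 61 of the 66. These 2 counts are not set beside the other cells and say nothing on the label. SOX9 did not stand apart, with 102, 115.5 and 141 CPM against 83.8, 115.5 and 116 CPM. The name glia-like thus rests on part of the list.

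Genes of Müller glia differed in direction. Of 12 genes 7 passed the minimum and 0 were called, with a median log2 fold of 0.14 over the 7. Of the 7, 3 were higher and 0 lower on all 3 chips, beside 15.6% and 21.9% of all genes that passed. Without the minimum 3 of the 12 were higher and 2 lower, beside 6.43% and 20.5% of all genes in the table. CLU was at 1265, 2404 and 5595 CPM against 751, 1006 and 2655 CPM and VIM at 1470, 3902 and 2032 CPM against 971, 1876 and 1417 CPM. The retinoid-binding RLBP1 was at 0, 1.85 and 37.4 CPM against 3.56, 160 and 90.1 CPM, and TF at 1.43, 0.617 and 31.9 CPM against 4.48, 50.1 and 861 CPM. A separate gate for Müller glia, at least 5 reads in 4 of RLBP1, WIF1, SPP1, GPX3, TF and DKK3, was passed by 14 of the chosen cells, 2 of 2 on chip a and 12 of 29 on chip b (41.4%, 23.5 to 61.1). Of the other cells 37.6% passed it on chip a and 33.8% on chip b, which lies within the interval of the chosen cells. Of these, 3 had HOX genes only, 7 HOX and retinal genes and 4 retinal genes only.

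Retinal identity genes were more often lower than higher in the chosen cells. Of 9 genes 8 passed, 0 were called, 4 of the 8 were lower and 1 higher on all 3 chips, and the median log2 fold was -0.94. Of all genes that passed, 21.9% were lower on all 3 chips. At least 3 of the genes were found in 69.6% of chosen and 70.3% of other cells at day 60 and in 83.3% and 75.5% at day 90. On chip a it was 50% (1 of 2 cells) and 60.2%, and on chip b 55.2% and 74.1%. Their sum by chip was 738, 1174, 2445 and 1686 CPM in the chosen cells against 1626, 1969, 2183 and 1890 CPM. PAX6 was at 169, 275 and 315 CPM against 482, 393 and 413 CPM and was read in 56 chosen cells. Of 9 genes of dividing cells and 8 of neurons in the table, 2 each passed and 0 were called. In each list 1 of the 2 that passed was lower on all 3 chips. Without the minimum 6 genes of dividing cells and 5 of neurons were lower, beside 20.5% of all genes in the table. TOP2A was at 93.1, 1.54 and 2.79 CPM against 500.1, 165 and 12.2 CPM. STMN2 was at 100.7 against 698.5 CPM at day 60 and at 28.3 against 196 CPM on chip b, and at 220 against 217 CPM at day 90.

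Genes of motile cilia were found together in part of the chosen cells. At least 5 reads in 3 or more of 9 such genes were found in 24 of the 66 (36.4%) and in 16 of the 1910 other cells (0.838%). By chip these were 11 of 23, 2 of 12, 0 of 2 and 11 of 29. In sums over cells 1 of the 9 genes passed the minimum and 0 were called. Without the minimum 3 were higher on all 3 chips, beside 6.43% of all genes in the table. FOXJ1, the factor that starts the programme of motile cilia, was at 14.3, 6.48 and 20.0 CPM against 0.430, 1.86 and 0.376 CPM. It was read in 13 of 33 cells with HOX genes only, in 3 of 24 with both and in 0 of 8 with retinal genes only. PIFO was at 139, 18.2 and 60.2 CPM against 9.84, 7.37 and 11.4 CPM and RSPH1, of the radial spoke, at 31.2, 12.7 and 120 CPM against 5.10, 4.63 and 3.47 CPM.

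Floor plate and roof plate genes were present in smaller parts. Floor plate genes, at least 3 of 6 with 5 reads, were found in 10 chosen cells and 10 others. FOXA1, which overlaps the start of TTC6 on the opposite strand, was read in 23 chosen cells (34.8%) and in 1.52% of the others, and how the reads of this pair were divided is uncertain without a stated strand setting. The list of roof plate and choroid plexus was found in 23 chosen cells (34.8%) and in 10.5% of the others. Of its 14 genes 3 passed and 0 were called. Without the minimum 4 were higher and 3 lower on all 3 chips, beside 6.43% and 20.5% of all genes in the table. The sum of the 14 was 651, 1026, 226 and 764 CPM against 352.5, 1060, 625 and 505 CPM. One of the higher genes, MSX1, picked after its values were seen, was at 80.3, 77.8 and 264 CPM against 12.4, 15.8 and 26.3 CPM.

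Markers of other cell types were looked for in the chosen cells. The 6 matrix genes, bounded by the rule, summed to 120, 126, 5.91 and 64.5 CPM in the chosen cells. At least 3 genes of the oligodendrocyte lineage, of Schwann cells and neural crest or of endothelium and mural cells were found in 0 of the 66 chosen cells, each of which allows a share of up to 4.55%, taken as 3 cells of the 66. In the other cells the shares were 0.157%, 0.262% and 0.366% in that order, so the counts of 0 do not set the chosen cells apart. Endothelial and mural genes summed to 21.0, 193, 248 and 126 CPM in the chosen cells against 41.8, 129, 148 and 195 CPM, and epithelial genes to 94.0, 258, 207 and 66.2 CPM against 88.0, 72.8, 29.2 and 55.9 CPM, so both were higher at day 90 and on chip a. The 2 microglia genes in the table summed to 1.63 CPM in the chosen cells of day 60 and to 0 on the other chips. Genes of the pigment epithelium were found in 13 chosen cells (19.7%) and in 18.6% of the others, and their summed level was 150, 2405, 504 and 527 CPM against 320, 3173, 957 and 786 CPM. Cone genes were found in 9 chosen cells and 23.6% of the others. Their part in the values above was not tested.

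Families of the rule genes were looked at gene by gene. Of 10 glypicans and syndecans 3 passed and 0 were called. Without the minimum 5 were higher on all 3 chips, beside 6.43% of all genes in the table but with GPC3 of the rule itself among the 10, and GPC4, the neighbour of GPC3 on the X chromosome, was at 95.2, 84.0 and 71.2 CPM against 23.8, 6.98 and 7.48 CPM. In the SPARC family 3 of 8 passed and 0 were called, and of the 3, 2 were higher and 1 lower on all 3 chips. Without the minimum 4 were higher, SPARCL1 of the rule among them, and 2 lower, beside 6.43% and 20.5% of all genes in the table. SPARC was read in all 66 cells at 726, 1654, 1516 and 988 CPM against 234, 681, 469 and 690 CPM by chip. Of 12 Wnt ligands and partners 1 passed the minimum and it, WLS, was called. WNT4, a further ligand of the list, was at 97.4, 72.2 and 33.0 CPM against 17.3, 2.60 and 3.18 CPM, with 92.3% and 84.4% of the reads at day 90 and on chip b from 1 cell each. Of 29 Wnt receptors, targets and antagonists 7 passed and 0 were called. Without the minimum 3 were higher and 6 lower on all 3 chips, beside 6.43% and 20.5% of all genes in the table. Few genes of other pathways passed, namely 2 of 11 for hedgehog, 7 of 23 for BMP and TGF-beta, 3 of 11 for Notch, 3 of 17 for FGF and 4 of 10 for insulin-like growth factor. None of these was called, and at a background of 0.267% lists of this size say little. Of the 29 genes of basement membrane and matrix outside the rule 16 passed and POSTN was the 1 called, and COL4A1 was at 107, 224 and 35.1 CPM against 16.4, 34.5 and 27.1 CPM.

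A further list, of 6 genes that the study named for its own small cluster with the rule genes, was POSTN, SKAP2, HOXB-AS3, MEIS2, GOLIM4 and IGFBP5. It was chosen on these samples and is no independent evidence. All 6 passed and 4 were called. GOLIM4 was at 585, 376 and 1046 CPM against 162, 127 and 181 CPM, and IGFBP5 at 778, 1453 and 2202 CPM against 288, 867 and 629.5 CPM.

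The chosen cells with HOX genes and no retinal genes were compared with the other cells alone, since both kinds were mixed above. On day 60 (14 cells) and chip b (15 cells), 42 of 4092 genes were at least 4-fold higher (1.03%) and 32 at least 4-fold lower (0.782%), against 15 (0.371%) and 0 of 4038 for all chosen cells on the same 2 chips. Among the higher genes ADCYAP1R1, the receptor of the neuropeptide PACAP, was at 88.7 and 152 CPM against 1.22 and 7.95 CPM. DNAH12, a dynein of motile cilia, was at 95.2 and 79.6 CPM against 1.53 and 2.56 CPM. Of the cells with HOX genes only, 50% and 33.3% had a read of ADCYAP1R1 and 28.6% and 26.7% one of DNAH12. PIFO was the 1 gene of the motile cilia list among the 42, where 3 of its 9 genes passed. CFAP221, RSPH4A and JHY, which also take part in cilia or their formation, were picked from the 42 after they were seen. SKAP2 reached 700.4 and 843 CPM, MEIS2 814 and 1423 CPM and POSTN 437 and 427 CPM. HOXB3, a gene the score itself used, was at 692 and 613 CPM against 162 and 60.7 CPM. NTRK2, AGT and LIFR, a receptor that acts in astrocyte formation, were among the 42.

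Among the lower genes were SIX6 and LHX2, which the score itself used. NEUROD1 was at 4.09 and 5.99 CPM against 199 and 177 CPM, RORB, a nuclear receptor of the retina, at 2.05 and 42.9 CPM against 253 and 384 CPM, and CRB1, the apical polarity protein of the retina, at 9.55 and 18.3 CPM against 107 and 220 CPM. CRABP1, which binds retinoic acid, was at 62.1 and 10.7 CPM against 693 and 420 CPM. Set against the chosen cells with retinal genes instead, 21 of 3790 genes were at least 4-fold higher in the cells with HOX genes only (0.554%) and 17 at least 4-fold lower (0.449%). SYT17 was at 134 and 130 CPM against 0.546 and 0 CPM, KRT18 at 110 and 109 CPM against 3.82 and 0.263 CPM and JHY at 68.2 and 127 CPM against 0.546 and 0 CPM. Of the cells with HOX genes only, 35.7% and 33.3% had a read of SYT17, 28.6% and 26.7% one of KRT18 and 42.9% and 46.7% one of JHY. CRB1 and SFRP2, a secreted Wnt antagonist of the retina, were lower, at 9.55 and 18.3 CPM against 127 and 314 CPM and at 30.7 and 63.2 CPM against 208 and 510.1 CPM.

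HOX-positive cells were also found outside the chosen cells, which made up 15.9% of the 358 in all. On day 60 (22 chosen and 193 other HOX-positive cells without the matrix genes) and chip b (26 and 37) the HOX genes themselves gave no common direction, with 4 of 23 higher and 4 lower on both chips and a median log2 difference of 0.05. All these cells were picked for HOX reads. Of all genes measured, 14.7% were higher and 22.9% lower on both chips. Neuron genes had the lowest median of the 37 lists, with 7 of 8 lower in the chosen cells on both chips, and a median of -2.40. Of the 4 that passed the minimum 2 were at least 4-fold lower, as were 0.252% of the 3961 genes that passed. STMN2, a regulator of microtubules in growing axons, was at 104 against 945 CPM at day 60 and at 23.98 against 1052 CPM on chip b. DCX, doublecortin of young neurons, was at 166 against 858 CPM and at 48.97 against 479 CPM. In the other direction 0.202% of the genes that passed were at least 4-fold higher. POSTN was among them, with 446 against 59.7 CPM and 230 against 18.1 CPM. MEIS2 was not, being less than 4-fold higher at day 60, with 677 against 177 CPM and 969 against 83.7 CPM. SOX2, of neural progenitors and glia, was at 263 against 149 CPM and 436 against 138 CPM. Of the 29 basement membrane and matrix genes 20 were higher in the chosen cells on both chips and 1 lower, and of the 12 that passed 11 were higher, beside 27.5% of all genes that passed. The number of genes per cell was not matched here.

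Other classes of non-neuronal cells, formed by gates like that of the chosen cells, were set beside them with the chosen cells left out. RFX4 was at 12.4, 0.7 and 0.2 CPM in the 143 cells with matrix genes at day 60, day 90 and on chip b, at 0 to 0.2 CPM in the 282 cells of the Müller glia gate and at 0 in the 92 cells of a ciliary margin gate (CPAMD8, AOC2, RELN, COL9A1, HSD17B2 and TFPI2). TTC6 was at no more than 1.2 CPM in any of them. RFX4 and TTC6, like WNT2B below, are rule genes, and cells chosen by them had been taken out of these classes. Their values here thus partly describe the choice and do not show a trait of the chosen cells. POSTN was shared with the cells with matrix genes, at 175, 302 and 277 CPM, and was at no more than 3.3 CPM in the other gates. IGFBP5 was as high in the cells with matrix genes, at 747, 1563 and 1948 CPM, as in the chosen cells. WNT2B was shared with the ciliary margin gate, at 82.6, 116 and 364 CPM by chip, and 5 chosen cells passed that gate. SKAP2 and WLS were at most 104 and 84.1 CPM in these classes on the 3 chips.

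Between day 60 and chip b of day 200, 158 of 5021 genes were at least 4-fold higher in the chosen cells (3.15%) and 99 at least 4-fold lower (1.97%). Age and chip cannot be told apart here. Among the 8 highest were GPX3, WIF1, CRYM, AQP1, ARHGAP29, CAPN6 and DDR2. GPX3 went from 26.9 to 1457 CPM (log2 difference 5.31) and in the other cells from 21.1 to 457 CPM (3.91), and WIF1 from 0.408 to 331 CPM (5.03) and from 1.19 to 289.5 CPM (4.74). These genes of Müller glia were thus higher in both groups. AQP1, a water channel, went from 2.85 to 221 CPM in the chosen cells (4.17) and from 3.85 to 23.97 CPM in the others (1.29). CAPN6 went from 0 to 142 CPM, with reads in 8 cells and 57.2% of them in 1, and from 4.36 to 15.8 CPM in the others. On chip a the 2 chosen cells had 8027 CPM of GPX3, 1079 of WIF1, 0 of AQP1 and 0 of CAPN6.

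Among the 8 lowest were MT-TL1, SCARNA22 and MT-TV, small RNAs that fell in the other cells alike, with MT-TL1 at 286 and 6.31 CPM in the chosen and 385 and 6.64 CPM in the other cells. FGFR3, a receptor of glial progenitors, was at 121 and 3.23 CPM in the chosen cells and at 43.1 and 6.66 CPM in the others. POGLUT1, which adds glucose to Notch receptors, was at 106 and 0.147 CPM against 40.8 and 39.8 CPM. TRAP1 was at 89.3 and 0 CPM, with 78.1% of the day 60 reads in 1 cell, and MTMR2 and FOXN2 completed the list. HOX genes gave 0 calls among 12 that passed, with a median log2 difference of -0.06. The Müller glia list had 5 of 10 called higher (median 1.86), against 3.15% of all genes, and 12 of the 29 chosen cells of chip b and 0 of 23 at day 60 passed the Müller glia gate, while in the other cells it was 33.8% and 0.360%.

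The promoters of the 15 leading genes and the 7 rule genes were searched for the paired sites bound by RFX factors, since RFX4 is among the rule genes. The motif was GTTNCC and GGNAAC with 0 to 3 bases between them, which reads the same on both strands. In RefSeq windows from 250 bases before to 50 after each start (GRCh38.p14), 260 of 35116 promoters held it (0.740%). Of the 22 genes 17 had a window, 25 windows in all, and 2 genes held the motif in 1 window each. This search was chosen after the values had been seen, and a match is a description of letters only. The stretches are shown for the ciliary gene C5orf49 and for RFX4 itself, with the motif in capitals, from chr5:7851144-7851186 (minus strand) and chr12:106601107-106601150 (plus strand).
C5orf49 (CFAP90): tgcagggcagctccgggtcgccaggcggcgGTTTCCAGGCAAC
RFX4: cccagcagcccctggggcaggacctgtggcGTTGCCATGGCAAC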

How the data were processed

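Single cells of retinal organoids at 3 ages were measured on 4 chips. The authors trimmed reads with Trimmomatic 0.33, aligned them with STAR 2.4.0 to GRCh38.p7 and counted them per gene with HTSeq 0.6 (versions from the submitters' processing notes), and filtered cells and genes. The deposited values are raw read counts per gene and cell, without molecular identifiers or normalization. The row labelled GFP-Spike was kept out of library sizes, leaving 24414 of 24415 rows. Summed reads per chip column ran from 3414268 to 7999822.

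The members and gene lists were chosen with earlier results of these data known. Reads of a group of cells were summed per chip and scaled to CPM. A gene was called where it differed at least 4-fold on log2(CPM + 10) on each chip with at least 10 members, given a level of 50 CPM or more and a read in 25% of cells or more in the higher group. Named genes are the 13 rule genes, the 15 highest and 10 lowest outside the rule, the 8 most changed each way between day 60 and chip b, and those of 37 lists. Names outside this rule (the HOX-only comparisons, the motif) were chosen after their values were seen. No test was planned or made, since the 3 ages rest on 4 chips. Alternatives were TMM factors of edgeR 4.0.16, size factors of DESeq2 1.42.0, other pseudocounts, minima and gates, thinning to 50000 reads and leaving out chips or rule genes. Scrublet (scanpy 1.11.5, 20 components) marked doublets, in Python 3.11.15 with numpy 2.4.6, pandas 2.3.3, scipy 1.17.1 and R 4.3.3. Positions are from GENCODE 44 on GRCh38. On simulated data for chosen against other cells, 3391 genes passed the minimum, 199 of the 200 changed ones among them. There 50 of 50 genes raised 8-fold and 50 of 50 raised 6-fold were called. So were 42 of 50 lowered 8-fold, 21 of 50 lowered 6-fold and 0 of 3192 unchanged genes. The simulated sums held Poisson error alone and no variation between cells. They cannot show how often the reads of a single cell lead to a call. A few genes of the lists and of the naming rule are not reported here.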

Additional observations from a re-analysis of the deposited data

Results flagged for a closer look

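The row labelled GFP-Spike, which no comparison used, held 15976 reads on chip a and 3515 reads on chip b of day 200. It held 0 reads on the chips of day 60 and day 90. Of these, 176 reads lay in 7 of the chosen cells, and 251 other cells of day 200 had such a read. The row was set aside as data outside the main measurement. What it counts is not stated in the labels. The paper added Array Control RNA spikes and reports a very high level of them at day 90, where this row held 0 reads. The line carries a CRX-GFP reporter, and whether the row counts reporter or spike reads was not tested. Counting the reads of the row in the library size moved the log2 fold of none of the 25 leading genes by more than 9.51e-06.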

How the results depend on the processing

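The chosen cells were 9.52% of day 60, 6.05% of day 90, 3.09% of chip a, 17.6% of chip b and 8.76% of all cells with at least 2 rule genes, and 2.42%, 0.756% and 0% of the first 3 chips and 1.97% of all with at least 4. With no matrix gene allowed they were 1.9% of day 60 and 2.28% of all, and with cells thinned to 50000 reads 0% of chip a and 2.54% of all. Leaving out each rule gene in turn gave 2.77% to 3.98% at day 60, 0.908% (without GPC3 or WNT2B) to 1.82% at day 90, 0% (without GPC3 or SPARCL1) to 0.562% on chip a, 5.51% to 7.61% on chip b and 2.18% (without GPC3) to 3.34% of all. The HOX-positive share of chosen cells was 68.2% with at least 5 HOX genes required, 97.4% in cells with at least 4 rule genes and 81.4% to 90.7% with a chip left out.

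Genes higher in chosen cells, 10 as reported, were 16 with a pseudocount of 1 CPM, 17 with at least 4 rule genes (5 cells at day 90), 42 with HOX genes and no retinal genes (day 60 and chip b alone, where all chosen cells gave 15), and 15 to 24 with a chip left out (19 without day 60, 15 without day 90, 24 without chip b). Genes lower, 0 as reported, were 1 with the mean over cells, 2 with a pseudocount of 1 CPM, 1 without minimum, 6 with at least 4 rule genes, 3 outside the Müller glia gate, 32 with HOX genes and no retinal genes, and 0 to 5 with a chip left out. Of the named genes, 4 instead of 2 were at least 4-fold lower by the mean over cells. Between day 60 and chip b, 158 higher genes became 252 with a pseudocount of 1 CPM, 329 without minimum, 282 with at least 4 rule genes and 323 with HOX genes only, and 99 lower genes became 197, 184, 206 and 386, and 251 outside the Müller glia gate. The 2 cells of chip a against day 60 gave 930 and 2473. Of the values checked this way, 98 main values stayed within the limits and 46 moved. These are shares and counts, for which a reversal was not scored. The alternatives with the Müller glia gate and the HOX kinds were chosen after seeing the data. The settings that leave out a chip or cells rest on fewer of them, and the cause of the other moves was not tested.

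No paired analysis was possible because the numbers of the chip columns are positions on separate chips and no test was made. With 66 cells on 4 chips, and 2 on chip a, intervals cover counting error only, 1 cell gave most reads of several genes, and age, chip and culture cannot be told apart.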
